A study of Mus musculus with 18 samples.

Results

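The dendritic cells of the mouse dorsal dermis that carried the growth factor receptor transcript Flt3 were 170 of 16877 single cells that passed the cell filter. They were chosen on measured counts of unique molecular identifiers (UMIs, 1 for each captured transcript molecule). A member had 850 to 7800 genes detected, under 13% of its UMIs from mitochondrial genes, at least 1 UMI of Flt3, at least 5 each of H2-Aa and H2-Ab1, at least 1 of Ptprc, at most 2 of C1qa and 0 of Pdgfra. The reference population was 1952 macrophages that passed the same filter and had at least 3 UMIs each of C1qa, C1qb and C1qc.

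The study sequenced dissociated dorsal dermis from wild-type male C57BL/6J mice kept under 12 h of light and 12 h of dark. There were 6 zeitgeber times (ZT2, ZT6, ZT10, ZT14, ZT18 and ZT22, in hours after lights on), with 3 replicate mice at each, so 18 libraries. All mice were adults in telogen, the resting phase of the hair cycle, and none carried a transgene or received a treatment. The skin was digested with collagenase and live cells were sorted by a viability dye, with no gate on an immune marker.

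Dendritic cells take up antigen in the tissue, present it on MHC class II and carry it to the draining lymph node, where they prime T cells. FLT3 is the receptor whose ligand sustains their development. Type 1 conventional dendritic cells bear the chemokine receptor XCR1 and present antigen to CD8 T cells, type 2 cells in mouse skin often bear the lectin CD209A, and cells that mature raise the chemokine receptor CCR7, which guides them into lymphatic vessels.

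The 18 libraries held 1 to 19 members each, with a median of 9. ZT14 replicate 3 gave the most, 19 cells, and ZT2 replicate 3 gave 16. ZT10 replicate 1 gave 3 cells and ZT18 replicate 1 gave 1 cell, so these 2 libraries entered no test of expression summed per library. Their cells were kept in the counts, levels and shares of cells that were pooled over all members. The libraries themselves ranged from 4850221 UMIs in ZT18 replicate 1 to 40827442 in ZT2 replicate 3. A member had a median of 15590.5 UMIs and 2674.5 genes, against 12694.5 UMIs and 3113 genes in a macrophage. The members' median depth was lowest in ZT2 replicate 1, at 6331 UMIs, and it was 6831 in ZT14 replicate 2. ZT6 replicate 2 and ZT10 replicate 3 had 89 cell barcodes in common, where no other pair shared more than 4, and no member was among the shared barcodes.

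Flt3 (gene ENSMUSG00000042817, chr5:147330741-147400489 on the minus strand in mm10) was a thin criterion. Its median was 2 UMIs per member and its highest count 17, with 60 members at 1 UMI and 39 at 2. Just outside it stood 506 cells that met every other condition with 0 Flt3 UMIs, and at this depth a count of 0 does not show that a cell lacked the receptor. The MHC class II genes were far from their threshold. H2-Aa (chr17:34282744-34287823) had a median of 197.5 UMIs and H2-Ab1 (chr17:34257689-34269419) one of 158. At H2-Aa, 3 members had 5 to 9 UMIs and 2 cells were left out for 0 to 4, and at H2-Ab1 these counts were 4 and 2. There were 9 members with a single Ptprc UMI and 3 cells left out for having none. C1qa stood at 1 or 2 UMIs in 8 members, 5 cells were left out for more, and 2 were left out for a Pdgfra UMI.

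The label was held against the 3 given markers that the rule did not use. Napsa (chr7:44572380-44586862), which encodes the aspartic protease napsin A, had a UMI in 156 of the 170 members (91.8%) and in 7.02% of macrophages. When every cell was thinned to 5000 UMIs, which drops 23 members, these shares were 85.7% and 4.71%, and no Napsa UMI was left in the fibroblast reference of 12133 cells. Bcl11a (chr11:24078056-24174123), a transcription factor of the lymphoid and dendritic lineages, was found in 59.4% of members and 0.666% of macrophages, or 30.6% and 0.170% after thinning. Cd209a (chr8:3743397-3748984) was found in 72.4% of members, but also in 47.7% of macrophages, 65.3% and 39.1% after thinning. Napsa and Bcl11a were therefore found in few macrophages, while Cd209a was shared with them. Napsa was also common in the 506 neighbours without a Flt3 UMI, which carried it in 70.9% and Bcl11a in 16.2% of cells, with Lyz2 at 99.5 UMIs per 10000 against 14.6 in the members.

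Defining genes of T cells, neutrophils, Langerhans cells, keratinocytes and mast cells were rare. Macrophage and collagen transcripts were found at low levels in many members, and monocyte transcripts were also common. Of the 170 members, 3 had a UMI of Cd3e, Cd3d or Cd3g, 2 had S100a8 or S100a9, 1 had Cd207, and none had Krt5, Krt14, Cpa3 or Mcpt4. The 24 macrophage genes summed to 9.10 UMIs per 10000 in members and 459 in macrophages, with Mertk at 0 in every member and Cd68 the most abundant. They include C1qb and C1qc, which chose the macrophages, so part of that contrast was set by the rule. The per library sums of this macrophage list had a median of 8.07 and reached 21.8 in ZT22 replicate 3. The 10 monocyte genes summed to 29.4 in members, 89.8 in macrophages and 143 in the neighbours without Flt3. Lyz2 was the most abundant of them in members. A collagen UMI (Col1a1, Col1a2 or Col3a1) was present in 151 members but none had 10 or more, and the 10 fibroblast genes summed to 5.04 in members, 43.2 in macrophages and 1120 in fibroblasts, with Gsn the most abundant. The part of these transcripts in the results that follow was not tested.

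Members and macrophages were then compared over the 16 libraries with at least 5 members, by edgeR's quasi-likelihood test on UMIs summed per library and population, with the library as a block. Most tested MHC class II presentation genes were higher in members, and most tested scavenger and lectin receptors, chemokine ligands and macrophage genes were lower. Of 4222 genes tested, 2684 passed an adjusted p of 0.05, which is 63.6%. There were 1188 higher in members (28.1%) and 1496 lower (35.4%), and the median log2 fold change of all genes tested was -0.10. With size factors by relative log expression this median was -0.27, so small differences depend on the scaling. The 8 genes of the selection rules were left out of the test. Other genes can still share that selection, through depth or through joint control with H2-Aa and H2-Ab1. A fold change of summed UMIs does not separate fewer cells with a transcript from fewer UMIs per cell; the shares of cells at 5000 UMIs bear on this where they are given. A gene that is low in members can pass the low-count filter through macrophages, and the reverse, so the counts for lists describe the genes that passed and not whole lists.

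**Figure D1:**
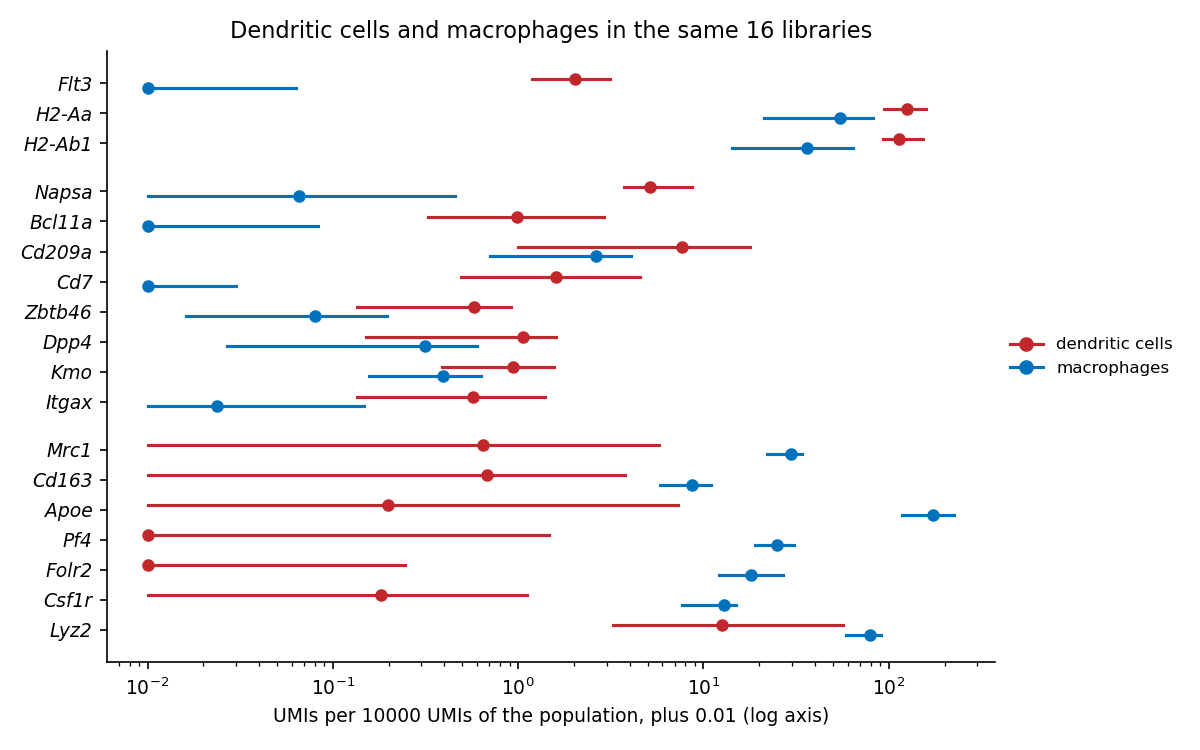
Level of each gene, as UMIs per 10000 UMIs of the population plus 0.01 on a log axis, in dendritic cells (red) and macrophages (blue) of the same 16 libraries. Dots are medians over libraries and lines run from the lowest to the highest library. Napsa, Bcl11a and Cd7 do not overlap between the populations, whereas Cd209a, Dpp4 and Kmo do. The top 3 genes chose the cells.

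Of the 11 genes of the dendritic cell core list, which includes the rule gene Flt3, 7 were tested and each of the 7 was higher. Napsa lay between 3.70 and 8.71 UMIs per 10000 in members, with a median of 5.14, and between 0 and 0.448 in macrophages, with a median of 0.0557. The ranges did not touch in any library, and the log2 fold change was 6.53 (SE 0.28, adjusted p = 6.16e-16, n = 16 libraries). Bcl11a was higher by 7.08 (SE 0.36, adjusted p = 1.04e-14), with 0.317 to 2.90 UMIs per 10000 in members and at most 0.0728 in macrophages. Dpp4, a cell-surface peptidase, was higher by 2.50 (SE 0.30) and Kmo, of tryptophan metabolism, by 1.58 (SE 0.17), the former in 16 of 16 libraries and the latter in 15.

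Of the type 1 list 6 genes were tested and 3 were higher, with a median of 0.55, and of the type 2 list 15 were tested, with 7 higher and 7 lower. Genes with the largest changes came from several functions. Cd7, a surface protein of T and NK cells, gave the largest rise, 9.64 (SE 0.29, adjusted p = 5.81e-19). It was at 0.483 to 4.56 UMIs per 10000 in members and at most 0.0199 in macrophages, where 4 UMIs were counted in all. The lysophosphatidylserine receptor gene P2ry10 was higher by 8.58 (SE 0.35), and Klrd1, which encodes the NK receptor chain CD94, by 8.07 (SE 0.35). Gcnt2 (6.54), Tspan13 (5.54) and Sept6 (5.50) were also higher in 16 of 16 libraries. Il1b, which encodes the inflammatory cytokine IL-1 beta, ranged from 7.77 to 71.3 UMIs per 10000 in members, with a median of 34.9. It ranged from 0.0466 to 2.46 in macrophages, so the ranges did not overlap. The log2 fold change was 5.84 (SE 0.43, adjusted p = 9.78e-12).

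Of 14 tested MHC class II presentation genes, 10 were higher, 3 lower and 1 did not pass, with a median of 1.85. Among the highest were genes of the accessory molecules that govern peptide loading. H2-Oa rose by 8.37 (SE 0.33), from at most 0.0397 UMIs per 10000 in macrophages to 0.471 to 2.56 in members, and H2-Ob rose by 5.34 (SE 0.25). Together they encode H2-O, which restrains the loading catalyst H2-DM. Of the catalyst's chains, H2-DMb2 was higher by 4.99 (SE 0.32) and H2-DMa by 1.93 (SE 0.13). Cd74, the invariant chain, was at 276 UMIs per 10000 in the median library of members and 111 in macrophages, a log2 change of 1.73 (SE 0.13). The thiol reductase gene Ifi30 was higher by 1.86 (SE 0.12). The lysosomal proteases Lgmn (-3.28, SE 0.13) and Ctsl (-4.66, SE 0.31) were lower in 16 of 16 libraries.

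Among MHC class I presentation genes the directions were mixed. Of 12 tested, 3 were higher, 4 lower and 5 did not pass, with a median of -0.16. B2m, the shared light chain, was at 12.3 to 37.0 UMIs per 10000 in members and 38.02 to 60.9 in macrophages, and fell by 0.94 on the log2 scale (SE 0.10, adjusted p = 1.47e-08). The immunoproteasome subunit Psmb8 was higher by 1.53 (SE 0.13). Of 7 tested costimulation genes, 3 were higher and 3 lower. The 3 higher were the small glycoprotein gene Cd52 (2.64, SE 0.15), Tnfsf9, which encodes the 4-1BB ligand (3.96, SE 0.29, with 1.19 to 17.4 UMIs per 10000 in members and 0.174 to 0.989 in macrophages), and Icosl (2.16, SE 0.23).

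Of 25 transcription factors tested, 13 were higher and 7 lower. Runx3 (4.92, SE 0.31), the nuclear receptor gene Nr4a3 (4.98, SE 0.35), Irf4 (1.09, SE 0.21) and Batf3 (1.05, SE 0.25) were higher. The Irf4 call was lost with Flt3 at 2 UMIs or more (0.62, adjusted p = 0.0564). The macrophage factor Maf was nearly absent, at a median of 0 UMIs per 10000 against 16.2 in macrophages (-7.30, SE 0.36). Irf8, which type 1 cells need, gave 0.90 (SE 0.35, adjusted p = 0.0299), with members at 0 to 6.57 and macrophages at 1.03 to 1.86. That call did not hold widely: it was lost with relative log expression scaling (adjusted p = 0.0701), without the low-count filter (0.0749), with DESeq2 (0.478) and with C1qa, C1qb and C1qc at 0 (0.105), and also without ZT10 replicate 2, ZT14 replicate 1, ZT14 replicate 3, ZT18 replicate 3, ZT22 replicate 1 or ZT22 replicate 2.

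Most tested chemokine ligands were lower. Of 12 tested ligands, 3 were higher and 9 lower, with a median of -4.39. Ccl4, an inflammatory chemokine, was at 9.25 to 77.4 UMIs per 10000 in members and 2.54 to 16.8 in macrophages (2.67, SE 0.24), and its relative Ccl3 was higher by 1.59 (SE 0.32). Cxcl16, a ligand of CXCR6, was higher by 1.58 (SE 0.28). Ccl8 was at 26.8 to 94.9 UMIs per 10000 in macrophages and 0 to 0.161 in members, with 7 UMIs in all (-10.50, SE 0.25). Ccl24 had 2 UMIs in members against 14284 in macrophages, a ratio of 696 per UMI counted (95% exact interval 193 to 5748, for counting error only). Of 6 tested receptors, Ccr2, of monocyte recruitment, was higher by 0.92 (SE 0.20) in 14 of 16 libraries and Gpr183, an oxysterol receptor that positions dendritic cells, by 1.57 (SE 0.19) in 16 of 16. S1pr1 had 0 UMIs in members, which makes it at least 62.8-fold lower, on a floor of 3 UMIs over the group.

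Of 17 tested scavenger and lectin receptors, 2 were higher and 14 lower, with a median of -2.68. Mrc1, the mannose receptor, was at 22.2 to 34.1 UMIs per 10000 in macrophages and 0 to 5.77 in members (-4.82, SE 0.25). Cd163 (-3.22, SE 0.30) and Cd36 (-5.22, SE 0.29) were also lower in all 16. Cd209a was 1 of the 2 higher, by 1.87 (SE 0.23), with 0.986 to 17.8 in members and 0.696 to 4.07 in macrophages. Its neighbours in the family did the reverse. Cd209g had 0 UMIs in members and was at least 327-fold lower, and Cd209f had 1 UMI against 28559. The CD209 genes are close relatives, so reads that fit several of them may be divided unevenly.

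Of the 24 macrophage genes 22 were tested and each of the 22 was lower. C1qb and C1qc, which chose the macrophages, were left out of the test. Apoe, a lipid carrier, was at 118 to 226 UMIs per 10000 in macrophages and 0 to 7.24 in members (-8.40, SE 0.44). Retnla (-9.84, SE 0.26) and Csf1r (-5.22, SE 0.31) were lower in every library. Mmp9, C6, Enpep, Pla2g2d and Iigp1 had 0 UMIs in members and were at least 172-fold, 176-fold, 149-fold, 84.1-fold and 80.7-fold lower. Of 13 tested interferon-stimulated genes, 12 were lower and none higher, with a median of -1.89, among them Ifit1 (-3.48, SE 0.32), Rsad2 (-2.20, SE 0.35) and Isg15 (-1.89, SE 0.32). Pattern receptors had 1 higher (Aim2, 0.86, SE 0.19) and 7 lower of 9 tested, with Tlr4 at -4.39 (SE 0.36) and Tlr7 at -4.15 (SE 0.35). Among 17 tested cytokine receptors 5 were higher, such as Csf2rb, the shared chain of the GM-CSF receptor (1.19, SE 0.23), and the decoy receptor Il1r2 (2.20, SE 0.36). In the same list 8 were lower, such as Tgfbr2 (-3.36, SE 0.20).

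The members were split by 3 genes. A cell with a Ccr7 UMI was put in the Ccr7+ class first, then a cell with an Xcr1 UMI in the Xcr1+ class, then a cell with a Cd209a UMI in the Cd209a+ class. That gave 43 Ccr7+ cells (25.3%), 15 Xcr1+ (8.82%), 92 Cd209a+ (54.1%) and 20 with none of the 3 (11.8%). The class genes largely excluded each other where type 1 met type 2, with Xcr1 and Cd209a together in 3 cells, while 30 of the 43 Ccr7+ cells carried Cd209a. Median depth was 16970, 18852, 14729 and 11451 UMIs in that order, so the unclassified cells were the shallowest. A cell without a UMI of a class gene may still express it.

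**Figure D2:**
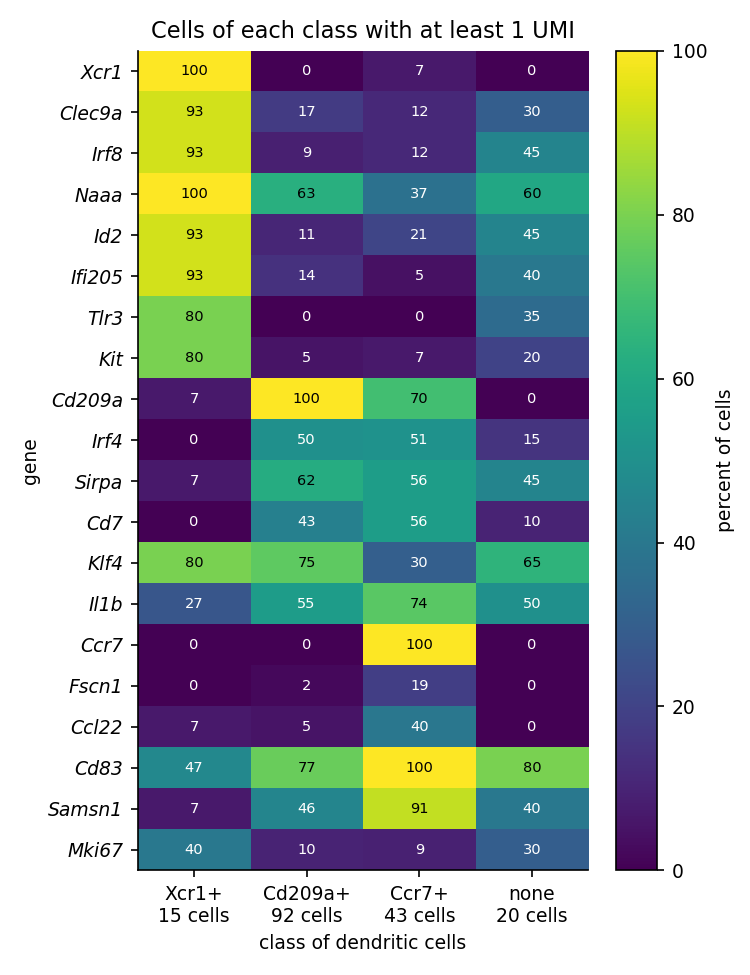
Percent of the cells of each class of dendritic cells (columns, with the number of cells) that had at least 1 UMI of each gene (rows). Xcr1, Cd209a and Ccr7 define the classes. Irf8, Id2 and Ifi205 are found in 93.3% of Xcr1+ cells and in 8.70 to 14.1% of Cd209a+ cells, and the unclassified cells lie between them.

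Xcr1+ cells carried several genes of type 1 cells, although Itgae of the type 1 list had a UMI in only 3 members of any class. Of the 15, 14 had the dead-cell receptor gene Clec9a, 14 had Irf8, 15 had Naaa, 14 had Id2, 12 had the double-stranded RNA sensor gene Tlr3, 12 had the stem cell factor receptor gene Kit and 10 had Cxcr3. None had Irf4, a factor of type 2 cells, or Cd7, and 1 had Sirpa. The 1 member with Cd207 (29 UMIs), the gene of langerin, was an Xcr1+ cell. The unclassified cells held type 1 genes as well, with Irf8 in 9 of 20, Tlr3 in 7 and Gcsam in 4, but they also had Lyz2 at 48.9 UMIs per 10000 and Apoe at 8.61, against 11.4 and 0.241 in the Cd209a+ class. Clec9a was wider than Xcr1, with 27 Clec9a+ members lacking an Xcr1 UMI.

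Xcr1+ and Cd209a+ cells could be compared in 5 libraries with at least 2 of each, ZT10 replicate 2, ZT14 replicate 3, ZT18 replicate 3 and ZT22 replicates 1 and 2. These held 2 or 3 Xcr1+ cells a library. Of 568 genes tested 53 passed (9.33%), 24 higher in Xcr1+ cells (4.23%) and 29 lower (5.11%). The count was 20 without ZT14 replicate 3, 25 without ZT10 replicate 2, 32 without ZT18 replicate 3 and 112 without ZT22 replicate 1. The median log2 fold change of all genes tested was 0.05. Of the 16 genes of the type 1 list 5 were tested, and Xcr1 was left out as a class gene. The 5 passed the low-count filter through the Xcr1+ cells, so their count is no support and single genes are given. Irf8 was at 9.47 to 18.01 UMIs per 10000 in Xcr1+ cells, with a median of 15.8, and 0 to 1.05 in Cd209a+ cells, with a median of 0.0688, a change of 6.12 (SE 0.88, adjusted p = 0.00718). Id2, an inhibitor of E proteins that type 1 cells depend on, was at 5.83 to 9.64 against 0 to 0.558 (5.19, SE 0.44). The lipid amidase gene Naaa was higher by 3.52 (SE 0.40) and Wdfy4, needed for cross-presentation, by 2.97 (SE 0.38). In these 5 libraries Ifi205, an interferon-inducible gene, had 1 UMI in Cd209a+ cells against 111, a ratio of 264 (exact interval 46.4 to 10509). Each of these was higher in 5 of 5 libraries without overlap. Ifi205 was also found in 81.1% of fibroblasts at 5000 UMIs, so it is not restricted to dendritic cells. The thioredoxin gene Txn1 (3.37, SE 0.53), Aif1 (3.14, SE 0.49) and the perforin-like Mpeg1 (2.09, SE 0.27) were also higher.

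Genes that were higher in Cd209a+ cells had several known roles. Tnfsf9 was at 4.05 to 11.1 UMIs per 10000 in Cd209a+ cells and had 1 UMI in Xcr1+ cells against 410, a ratio of 173 (exact interval 30.8 to 6833). Zeb2, a factor that opposes the type 1 fate, also had 1 UMI against 231, a ratio of 97.2 (17.3 to 3857). Malt1, a paracaspase that acts upstream of NF-kappaB, had 3 against 175, a ratio of 24.6 (8.26 to 120), and Slamf9 had 3 against 116, a ratio of 16.3 (5.43 to 80.1). Ifi30 was lower in Xcr1+ cells by 3.16 (SE 0.41), at 0.326 to 3.06 against 11.5 to 35.8. The chemokine receptor gene Cxcr4 was lower by 2.60 (SE 0.35). These genes were lower in 5 of 5 libraries without overlap, and so were the immediate-early gene Atf3 (-3.63, SE 0.69, adjusted p = 0.0209) and the NF-kappaB inhibitor Nfkbia (-3.44, SE 0.80, adjusted p = 0.0445). Of the type 2 list 5 genes were tested and none passed, although 3 had an unadjusted p under 0.05, with a median of -2.95. Among 16 tested dissociation and stress genes, 4 were lower and none higher. The Atf3 call was lost without ZT10 replicate 2, ZT14 replicate 3 or ZT18 replicate 3, and the Nfkbia call without any of these or ZT22 replicate 2. With Flt3 at 2 UMIs or more, the calls of Atf3 (adjusted p = 0.112), Cxcr4 (adjusted p = 0.321) and Mpeg1 (adjusted p = 0.0762) were lost.

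**Figure D3:**
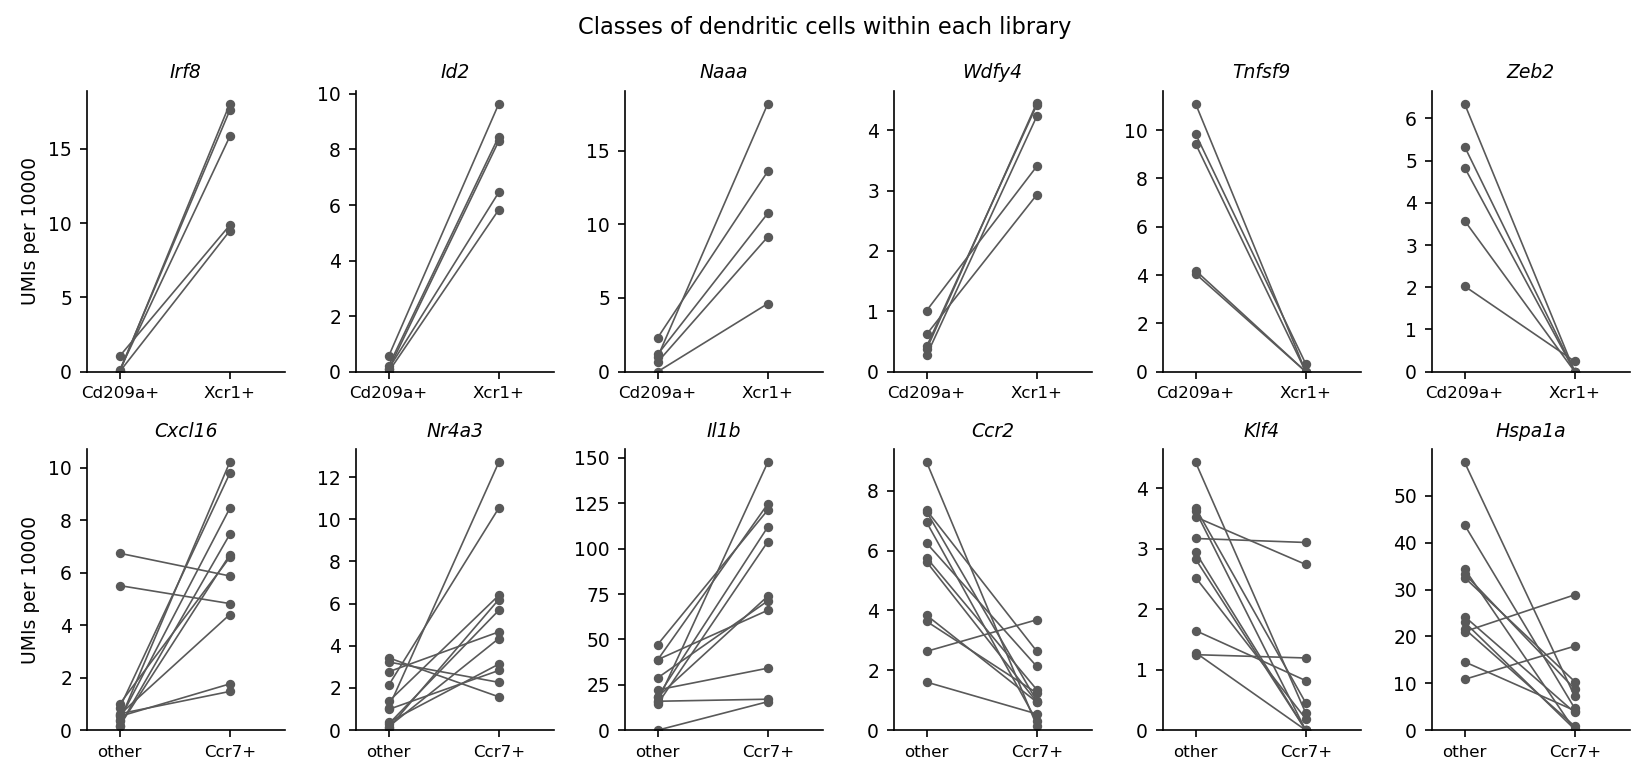
UMIs per 10000 of each class, on a linear axis, for 6 genes of each comparison, with 1 line for each library. Upper panels join Cd209a+ and Xcr1+ cells of 5 libraries, and lower panels join the other and the Ccr7+ cells of 11 libraries. All 5 upper lines run the same way in each panel, whereas 2 of the 11 lower lines run against the rest in Cxcl16, Nr4a3 and Hspa1a.

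Ccr7+ cells were compared with the other members in the 11 libraries with at least 2 of each. Of 655 genes tested, 80 passed (12.2%), 39 higher (5.95%) and 41 lower (6.26%), with a median log2 fold change of -0.05 over all genes tested. Without ZT6 replicate 3 the count was 52, and it was 26 with C1qa, C1qb and C1qc at 0, 17 with Flt3 at 2 UMIs or more and 10 at 5000 UMIs a cell. Il1b was at 15.7 to 148 UMIs per 10000 in Ccr7+ cells, with a median of 73.8, and 0 to 47.2 in the others, with a median of 18.5. It was higher in 11 of 11 libraries, by 1.87 (SE 0.35, adjusted p = 0.00957), though the ranges overlapped. This call was lost with Flt3 at 2 UMIs or more (adjusted p = 0.370) and with C1qa, C1qb and C1qc at 0 (adjusted p = 0.155). Zfp36l1, an RNA-binding decay factor, was higher by 1.62 (SE 0.19, adjusted p = 4.13e-04) in 11 of 11. Of the 28 mature dendritic cell genes 3 were tested, and Ccr7 was left out as a class gene. The 3 were higher, namely Samsn1 (1.67, SE 0.35), Traf1 (1.37, SE 0.26) and Cd83 (1.26, SE 0.27), each in 11 of 11. Nfkbia was higher by 1.32 (SE 0.26) and the NF-kappaB subunit gene Rel by 1.32 (SE 0.28), both in 10 of 11. Cxcl16 (2.48, SE 0.52) and Nr4a3 (2.14, SE 0.54) were higher in 9 of 11.

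Among the lower genes, Ly6e, a surface protein, was at a median of 0 UMIs per 10000 in Ccr7+ cells and 3.86 in the others, lower in 11 of 11 libraries (-3.66, SE 0.55, adjusted p = 0.00361). Ccr2 was at 0.979 against 5.76 (-2.03, SE 0.38) in 10 of 11, and the zinc finger factor Klf4 at 0.284 against 2.94 (-2.02, SE 0.50) in 11 of 11. The lysosomal gene Psap (-1.57, SE 0.30) was lower in 11 of 11. The inducible HSP70 genes Hspa1a (-2.41, SE 0.57) and Hspa1b (-2.49, SE 0.54) were lower in 9 of 11; they are near-identical copies whose reads may be divided between them. Of 18 tested dissociation and stress genes 1 was higher (Nfkbia) and 4 lower. This list responds to tissue digestion, and its part in the difference was not tested.

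Members with a Fscn1 UMI, not all of them Ccr7+, were described beside the Ccr7+ cells without one. Fscn1, which encodes the actin bundler fascin of mature dendritic cells, had a UMI in 10 members, a split made after the values were seen. Of the 10, 8 had Ccr7, 8 had Ccl22 and 2 had Cd209a, while 30 of the 35 Ccr7+ cells without Fscn1 had Cd209a. Ccr7 itself was at 22.4 UMIs per 10000 in the Fscn1+ cells and 6.94 in Ccr7+ cells without Fscn1. Ccl22, a chemokine for CCR4, was at 66.2 against 2.30, although 1 cell held 65.7% of all its UMIs. The tolerance-linked enzyme gene Il4i1 was in 10 of 10 at 6.57 against 1.08, the signalling inhibitor gene Socs2 at 4.71 against 0.209, and Relb at 5.07 against 0.854. The mature dendritic cell genes Cd83, Cd80, Traf1 and Cd86 were not higher in the Fscn1+ cells. They were at 12.9, 0.569, 6.21 and 1.29 against 19.8, 1.06, 7.22 and 1.31. The light chain gene B2m was at 52.7 against 14.5. The order was opposite for Il1b, which had a UMI in 1 of the 10 Fscn1+ cells (1.03 UMIs per 10000) and in 31 of the 35 others (97.5). No test was run on so few cells. These cells came from 9 libraries, with at most 2 in any. Il12b, a subunit of IL-12, had 24 UMIs in all, every one in 5 Fscn1+ cells.

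The abundance of members did not change detectably with time. Their share of filtered Ptprc+ cells was 8.70% ± 4.65 (SD, n = 3) at ZT6, the highest time, 6.91% ± 3.11 at ZT18, the next, and 3.84% ± 2.14 at ZT10, the lowest. A single ZT6 library, replicate 2, was at 14.1%, and the other 2 of that time were at 6.29% and 5.76%. A 24 h cosine fitted to this share over 18 libraries had an R2 of 0.0350 (two-sided permutation test, p = 0.788, adjusted p = 0.868 over 5 shares), which ran from 0.0108 to 0.127 with 1 library left out, the highest without ZT6 replicate 2. For members among all filtered cells R2 was 0.118 (permutation p = 0.420, adjusted p = 0.868), with a range of 0.0764 to 0.214. Within the members, the Ccr7+ share was 44.8% ± 5.0 at ZT6 (40, 44.4 and 50%) and 26.7 and 33.3% at ZT18, the next highest time. It was 26.5% ± 7.3 at ZT2, 20.5% ± 7.2 at ZT22, 10 and 20% at ZT10 and 13.7% ± 2.4 at ZT14. All 3 ZT6 libraries stood above the other 13. The cosine had an R2 of 0.314 with a peak at 4.17 h, which did not pass (permutation p = 0.0893, adjusted p = 0.447, 16 libraries). With cells thinned to 5000 UMIs before gating, 8 libraries were left and R2 was 0.0411 with a peak at 19.3 h. Each library contributes few cells, as for ZT6 replicate 3 with 4 of 8 (exact 95% interval 15.7 to 84.3%). For Xcr1+ and Cd209a+ shares R2 was 0.0326 and 0.0217 (permutation p = 0.799 and 0.868), with ranges of 0.0105 to 0.156 and 8.69e-04 to 0.135 when 1 library was left out. The highest values came without ZT10 replicate 2 and ZT22 replicate 1. With cells thinned to 5000 UMIs, over 8 libraries, R2 was 0.679 for the Xcr1+ share and 0.334 for the Cd209a+ share. Neither passed (permutation p = 0.107 and 0.342).

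**Figure D4:**
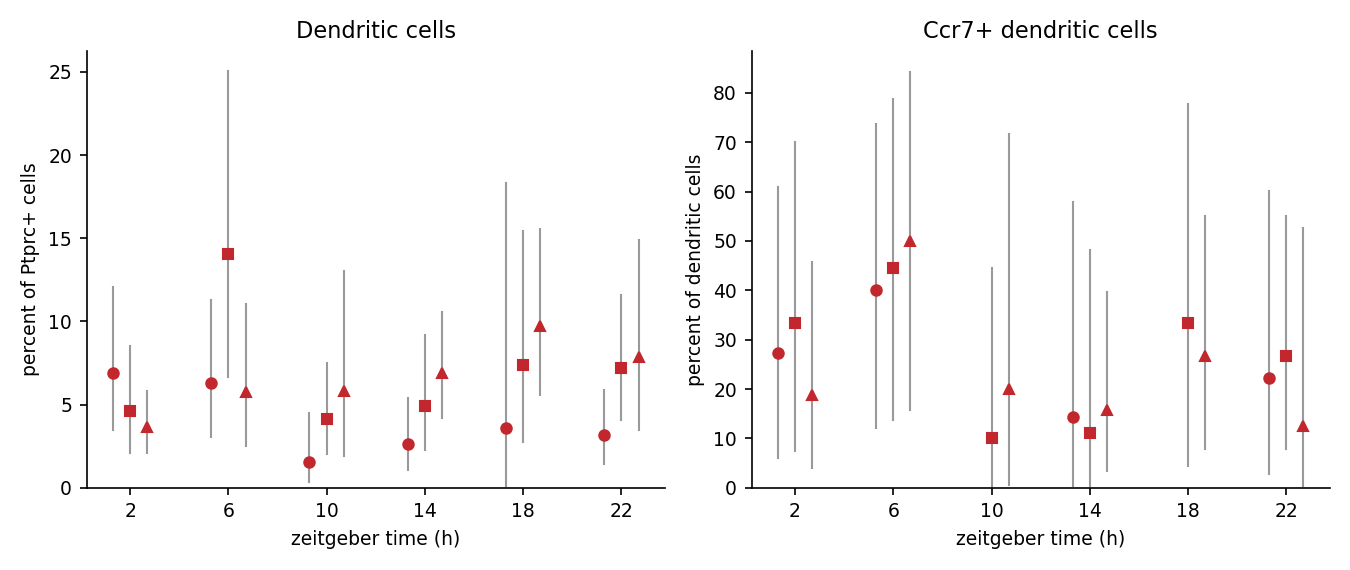
Share of Ptprc+ cells that were dendritic cells (left, 18 libraries) and share of dendritic cells that were Ccr7+ (right, 16 libraries), in percent, against zeitgeber time. Each point is a library (circle, square and triangle for replicates 1, 2 and 3) and lines are exact 95% binomial intervals. The Ccr7+ points at ZT6 sit from 40 to 50%, with wide intervals that reach those of other times.

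Expression over the day was tested with a 24 h cosine on the summed members of 16 libraries. Of 2742 genes tested, 4 passed (0.146%), and 159 had an unadjusted p under 0.05. DESeq2 called 8 of 2730. The 4 were Zmynd15, a zinc finger gene (chr11:70459433-70466202, adjusted p = 0.00850), the tetraspanin gene Tspan3 (chr9:56131725-56165477, adjusted p = 0.0110), Apol7c, of the apolipoprotein L family (chr15:77524852-77533316, adjusted p = 0.0179), and H2-M2, a non-classical MHC class I gene (chr17:37480851-37483552, adjusted p = 0.0199). Their fitted peaks fell between 4.53 and 6.19 h. DESeq2 also called Zmynd15 and Tspan3 but did not call Apol7c (adjusted p = 0.280) or H2-M2 (adjusted p = 0.781). None of the 4 passed at 5000 UMIs a cell, or with at least 10 members a library, and of the 4 only H2-M2 passed with Flt3 at 2 UMIs or more.

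Zmynd15, Apol7c and H2-M2 had UMIs in 11, 7 and 4 cells, and Tspan3 in 47. Zmynd15 was at 4.94, 0.0675 and 4.32 UMIs per 10000 in the ZT6 libraries and 0.643, 0.0657 and 0.146 in those of ZT2, and no other library passed 0.141. Tspan3 was at 0.882, 2.16 and 3.18 at ZT6, above each of the other 13 libraries, the highest of which was 0.724. Apol7c was at 0.294, 5.47 and 0.441 at ZT6, and at 2.81, 0 and 0.329 at ZT2. H2-M2 was at 2.23, 1.08 and 2.20 at ZT6 and at 0.511 in 1 ZT2 library, with all others at 0. For these 3 genes other than Tspan3 the fitted amplitude rests on libraries at 0 and is not given, while for Tspan3 it was 2.06 on the log2 scale. The 10 Fscn1+ cells held 96.1% of the 155 Zmynd15 UMIs, 57.3% of the 143 Tspan3 UMIs, and all of the 143 Apol7c and 93 H2-M2 UMIs. A single cell held 54.2% of Zmynd15 and another 56.6% of Apol7c.

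With the Fscn1+ cells left out, an alternative chosen after the data were seen, 0 of 2562 genes passed and 69 had an unadjusted p under 0.05. Only Tspan3 of the 4 was still abundant enough to test there (unadjusted p = 0.0560). All 3 ZT6 libraries held a Fscn1+ cell, as did 2 of ZT2, but so did 1 at ZT14, 2 at ZT18 (of which 1 was not in the fit) and 1 at ZT22. Of the next genes by p, Tmem123, Ccl5, Anxa3 and Serpinb6b had 71.4%, 78.0%, 91.0% and 96.5% of their UMIs in these cells (adjusted p = 0.0629 to 0.0831). Sdc4, the tenth, had 8.42% there, and its unadjusted p was 4.29e-04 with these cells and 0.00126 without them, with neither fit past the adjusted threshold. Of the 20 tested mature dendritic cell genes 1 passed, Zmynd15, and 12 had an unadjusted p under 0.05. Of all 2742 genes tested, 4 passed and 159 had an unadjusted p under 0.05. Leaving out ZT6 replicate 3 left 1 call, ZT6 replicate 1 or replicate 2 left 2, and leaving out ZT2 replicate 2, ZT22 replicate 2 or ZT2 replicate 3 gave 8, 7 and 13.

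**Figure D5:**
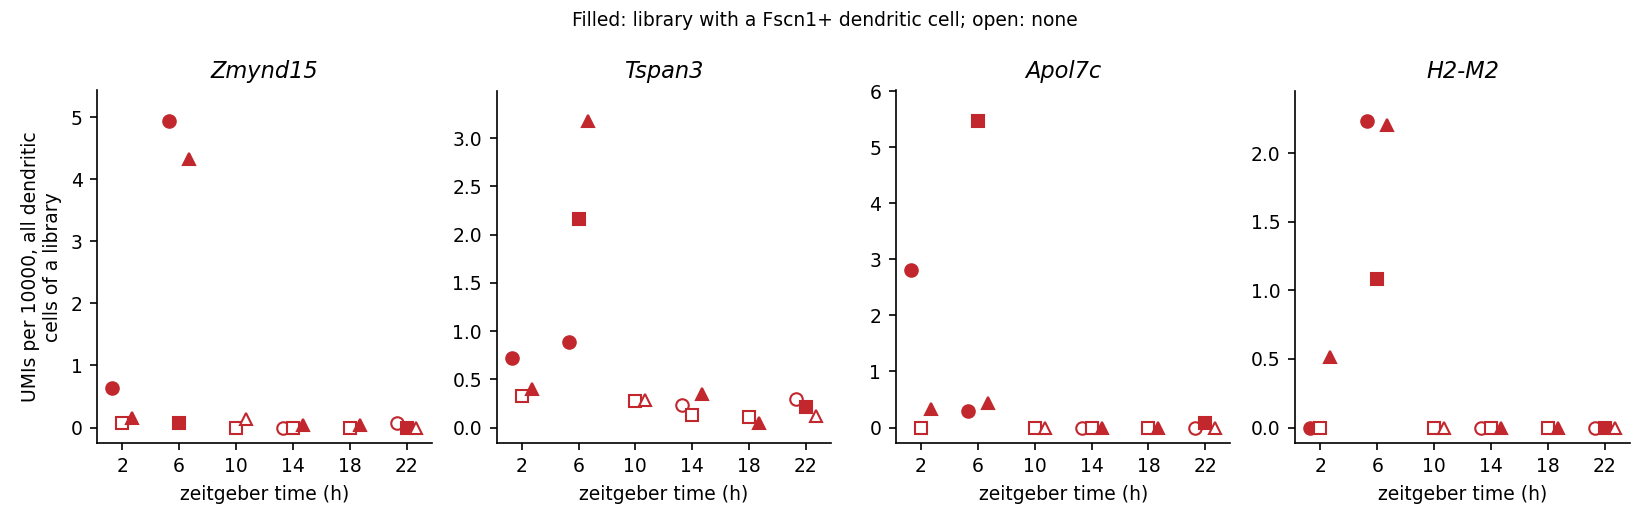
UMIs per 10000 of all dendritic cells of a library, on linear axes, against zeitgeber time for the 4 genes that passed the rhythm test. Circles, squares and triangles are replicates 1, 2 and 3, filled where the library held a Fscn1+ dendritic cell. Every value above 0.9 is a filled symbol of ZT2 or ZT6, and most libraries are at or near 0.

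The fitted peaks of these genes lay close together. Zmynd15 and H2-M2 were highest in ZT6 replicate 1, Apol7c in ZT6 replicate 2 and Tspan3 in ZT6 replicate 3. The 250 bases before the annotated start of each gene with a RefSeq promoter entry (build GRCm38.p6, strand of the gene) are shown. The windows are chr15:77533316-77533565 for Apol7c, chr17:37483555-37483804 for H2-M2 and chr9:56161071-56161320 for Tspan3, all on the minus strand. The Tspan3 start used by RefSeq lies inside the span that GENCODE gives the gene. Capitals mark matches to the NF-kappaB consensus.
Apol7c: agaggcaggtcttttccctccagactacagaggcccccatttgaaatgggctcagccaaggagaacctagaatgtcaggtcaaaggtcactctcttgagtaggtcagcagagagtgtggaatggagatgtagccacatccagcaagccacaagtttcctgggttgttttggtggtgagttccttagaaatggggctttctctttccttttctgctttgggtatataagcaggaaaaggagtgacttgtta
H2-M2: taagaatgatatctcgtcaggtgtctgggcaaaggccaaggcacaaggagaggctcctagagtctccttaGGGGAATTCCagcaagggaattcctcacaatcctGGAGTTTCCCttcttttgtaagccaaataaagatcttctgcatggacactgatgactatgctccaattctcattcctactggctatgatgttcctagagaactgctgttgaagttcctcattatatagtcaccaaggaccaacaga
Tspan3: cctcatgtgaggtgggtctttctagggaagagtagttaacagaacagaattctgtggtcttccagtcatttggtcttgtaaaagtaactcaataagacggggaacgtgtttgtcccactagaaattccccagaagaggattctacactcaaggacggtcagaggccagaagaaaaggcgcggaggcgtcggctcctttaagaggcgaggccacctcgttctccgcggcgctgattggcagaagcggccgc
The 3 windows were searched on both strands for the clock E-box CACGTG, the D-box TTATGTAA and the NF-kappaB consensus, motifs that do not overlap here. H2-M2 had 2 NF-kappaB matches, which began 180 and 146 bases before the start, and no other match was found. Of 32851 promoter windows of this length, 7.25% held an NF-kappaB match, 6.02% the E-box and 0.819% the D-box. A match describes letters in the window, not a bound site.

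Many clock transcripts were scarce in the members. The list of 20 genes held 19 of the clock and its outputs and Tspan4, a tetraspanin gene that is not part of the clock. Of the 20, 5 passed the low-count filter in the comparison with macrophages, with 3 higher and 2 lower. The transcriptional repressor gene Bhlhe40 was higher by 4.20 (SE 0.36), at 0.475 to 4.32 UMIs per 10000 against 0.0159 to 0.398. Clock was lower by 1.06 (SE 0.28) and Tspan4 by 4.69 (SE 0.36). Nfil3 (1.07, SE 0.26) and Per1 (0.41, SE 0.17, adjusted p = 0.0430) were higher, but the Per1 call was lost without the low-count filter. Without that filter 14 of 20 were lower (Tspan4 among them), 2 higher (Bhlhe40 and Nfil3) and 4 did not pass, with a median of -2.81 against -0.46 for all genes, where 22.3% of 18163 genes were lower. Nr1d1, which encodes the repressor REV-ERB alpha, had 3 UMIs in the 170 members and 936 in macrophages, a ratio of 29.0 per UMI counted (exact interval 9.90 to 141). Its partner Nr1d2 had 15 against 1191, the output gene Dbp 10 against 1524, Per3 6 against 536, and Arntl, the core activator, 3 against 630, a ratio of 19.5 (6.65 to 94.98).

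The median depth of the members was above that of macrophages. At equal depth some clock transcripts were found in a smaller share of members than of macrophages, and others were not. At 5000 UMIs a cell, Nr1d1 was found in 0.680% of members, 13.8% of macrophages, 4.76% of the neighbours without Flt3 and 19.9% of fibroblasts. Dbp was found in 2.04%, 18.5%, 2.01% and 27.1%. Nr1d2 was found in 3.40% of members and 18.9% of macrophages. Per1, a light and stress responsive clock gene, did not follow, with 23.1% and 25.4%. Bhlhe40 was found in 48.3% and 3.06%, and Nfil3 in 19.7% and 10.7%. Of the clock list 3 genes could be tested for a rhythm in members, Per1 (unadjusted p = 0.0859), Bhlhe40 and Nfil3, and none passed. Per1 was at 0.877 to 1.32 UMIs per 10000 at ZT6, 0.643 to 1.18 at ZT2 and 0.675 and 0.986 at ZT10, which overlap. It was at 0.317 to 0.652 at ZT14, 0.556 in 1 ZT18 library and higher in the other, and 0.0751, 0.589 and 0.675 at ZT22.

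In macrophages of the same libraries 21 of 9894 genes passed (0.212%), among them Nr1d2, Dbp, Per3, Nr1d1, Tef and Arntl, though the Arntl call was lost without any 1 of 7 libraries (adjusted p up to 0.113 over all alternatives). The count ran from 8 without ZT2 replicate 2 to 47 without ZT2 replicate 3. Macrophages held 27109696 UMIs in all and the members 2521753, so the counts of the populations are not comparable. The difference in rhythm was tested in 1 model with the library as a block. None of 4222 genes passed (0% called), 208 had an unadjusted p under 0.05, and DESeq2 also called 0 (190 at that level). The lowest adjusted p was 0.0565, for Tspan3 and Klrd1, and leaving out ZT2 replicate 3 gave 4 calls. Of that list Per1, Clock, Nfil3, Bhlhe40 and Tspan4 were in that test and none passed.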

How the data were processed

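Live cells of collagenase-digested dorsal skin were profiled with droplet 3′ libraries. The authors deposited UMI counts per gene and barcode, made with Cell Ranger 3.1.0 on mm10 according to the submitters' processing notes. No cell annotation was used. The members, gene lists and tests were chosen with earlier results of these data known. Cells were gated on counts as described above, and doublets were kept in the reported values. Counts were summed per library and population or class. The fits used libraries with at least 5 members, which left 16, and class comparisons used libraries with at least 2 cells of each class.

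Sums were tested with edgeR 4.0.16 (R 4.3.3), with TMM scaling, filterByExpr and the quasi-likelihood F test, and Benjamini-Hochberg adjustment over all genes tested. The code was tested on simulated data. Rhythms were 24 h cosines, and comparisons within mice had the library as a block. SE is the absolute log2 fold change divided by the square root of F. UMIs per 10000 are shares of the summed UMIs of the cells in question. Intervals cover counting error only. Beside list members, genes named were the 10 largest changes per direction among those past the threshold with a mean of at least 50 CPM in the higher group and the same direction in every library, or for rhythms the 10 of smallest p. Any other gene named was chosen after its values were seen.

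Alternatives were DESeq2 1.42.0, other scaling, no low-count filter, other gates, thinning to 5000 UMIs, removal of doublet candidates, the replicate number as a block, and each library left out in turn. Same-numbered libraries did not deviate together in members (mean r of -0.017 over 36 pairs), so the numbers were not taken as pairs. Results for some genes are not reported here.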

Additional observations from a re-analysis of the deposited data

Results flagged for a closer look

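Of 48 sets of values over the 5 libraries of the Xcr1+ and Cd209a+ comparison, 8 held a library far from the others by Dixon's test at the 95% level. For normally distributed values chance alone gives this in about 1 of 20 sets. That rate does not hold where all libraries but 1 are at 0, as for Ifi205, Tnfsf9 and Zeb2 below. In these libraries the Xcr1+ class held 2 or 3 cells, and 5 of the 8 values are from ZT22 replicate 1, which held 2 cells of each class. Among Cd209a+ cells, Ifi205 was at 0.06878 UMIs per 10000 in ZT22 replicate 2 and 0 in the other libraries. Irf8 was at 1.046 in Cd209a+ cells of ZT10 replicate 2, with the next at 0.0930. Ifi30 was at 35.77 in Cd209a+ cells of ZT22 replicate 1, with the next at 17.7, and Stk17b was at 7.425 there, with the next at 4.65. Among Xcr1+ cells, Tnfsf9 was at 0.3256 in ZT22 replicate 2 and 0 elsewhere, and Zeb2 was at 0.2429 in ZT22 replicate 1 and 0 elsewhere. Nfkbia was at 3.401 in Xcr1+ cells of ZT22 replicate 1, with the next at 0.679, and Ifitm2 was at 9.717 there, with the next at 1.30.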

How the results depend on the processing

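Where no reason is given, the cause of a shift in count was not tested. Without the low-count filter, calls were 133 for rhythm in dendritic cells, 211 for rhythm in macrophages, 75 for the difference in rhythm, 5917 between dendritic cells and macrophages, 282 between Xcr1+ and Cd209a+ cells and 260 between Ccr7+ and other cells. DESeq2 gave 8 for rhythm in dendritic cells, 82 in macrophages and 83 between Xcr1+ and Cd209a+ cells. Some gates also left fewer libraries in a fit. With Flt3 at 2 UMIs or more, which left 13 libraries for rhythm and 8 for Ccr7+, rhythm calls were 2 in dendritic cells and 8 in macrophages, and the Ccr7+ comparison gave 17. With C1qa, C1qb and C1qc at 0, which left 15 libraries for rhythm and 4 for Xcr1+, these were 12, 39 and 26, the difference in rhythm gave 1 and the Xcr1+ comparison 106. The gates on members do not change the macrophages, so their counts moved through the libraries left out, and 39 is also the count without ZT14 replicate 1. Stricter macrophages gave 1 for the difference in rhythm. At 5000 UMIs a cell, with 15 libraries (4 for Xcr1+ and 11 for Ccr7+), calls were 0 for rhythm in dendritic cells, 1020 of 1524 genes against macrophages, 29 for Xcr1+ and 10 for Ccr7+. With 10 members a library, 7 libraries were left and rhythm calls were 0 and 5. At 2 UMIs of the class gene, with 3 libraries, the Xcr1+ comparison gave 94. Chosen after seeing the data, leaving out Fscn1+ cells gave 0 rhythm calls in dendritic cells and leaving out the 2 libraries that share barcodes gave 8. With relative log expression and with DESeq2, 34.7% and 34.5% of the genes called against macrophages were higher in dendritic cells, and 44.3% as reported. Between Xcr1+ and Cd209a+ cells, 45.3% of calls were higher as reported and 30.1% with DESeq2.

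Leaving out each library in turn, calls ranged from 1 to 13 for rhythm in dendritic cells, 8 to 47 in macrophages, 0 to 4 for the difference, 2609 to 2997 against macrophages, 20 to 112 for Xcr1+ and 52 to 82 for Ccr7+. The R2 of the Ccr7+ share was 0.0411 at 5000 UMIs a cell and ranged from 0.255 to 0.453 with a library left out, and no share passed. H2-M2 lost its rhythm call without any ZT6 library, Tspan3 without ZT6 replicate 2 or 3, and Apol7c without ZT14 replicate 3 or ZT22 replicate 2, and also with C1qa, C1qb and C1qc at 0 (adjusted p = 0.207). With the replicate block, rhythm calls were 4 in dendritic cells and 14 in macrophages, the R2 of the Ccr7+ share was 0.313, and no share passed. Of single genes under all alternatives, 1967 results kept their call and 11 lost it against macrophages, 316 and 47 for Xcr1+, and 554 and 97 for Ccr7+, and none reversed. For rhythm 22 results lost the call in dendritic cells, all of the 4 called genes, and 27 in macrophages. Zmynd15 lost it with Flt3 at 2 UMIs or more, at 5000 UMIs a cell and with 10 members a library. Without ZT2 replicate 1 or any 1 ZT6 library, either Zmynd15 or Apol7c was no longer tested, which is not counted as a lost call. Of the Ccr7+ genes named, Samsn1, Rel, Cxcl16, Nr4a3, Ccr2 and Psap lost the call with Flt3 at 2 UMIs or more, Traf1 and Nr4a3 with C1qa, C1qb and C1qc at 0, Cd83 and Rel at 5000 UMIs, and Samsn1 without Fscn1+ cells. In macrophages Arntl lost it in 9 settings, Tef in 2, and Nr1d1 and Per3 in 1 each. The libraries held 1 to 19 members each, which limits the precision.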

Other observations

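Proliferation genes were found in part of the dendritic cells. Of the 170, 30 had a UMI of Mki67 or Top2a, and at 5000 UMIs a cell Mki67 was found in 11.6% of dendritic cells, 2.55% of macrophages and 0.328% of fibroblasts. By class, Mki67 was found in 6 of 15 Xcr1+ cells, 9 of 92 Cd209a+ cells, 4 of 43 Ccr7+ cells and 6 of 20 unclassified cells. The mitotic kinase gene Cdk1 was found in 7, 3, 1 and 2 cells in the same order. These differences between classes were not tested.

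Siglech, a lectin gene of plasmacytoid dendritic cells, had 73 UMIs in 10 cells, all of them Cd209a+, and at 5000 UMIs it was found in 3.40% of dendritic cells and 17.8% of macrophages. Ly6c2, a monocyte gene, was found in 18 Cd209a+ and 4 unclassified cells and in no Xcr1+ or Ccr7+ cell. Ighm was found in 119 dendritic cells, and at equal depth in 44.9% of them and 77.8% of macrophages.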
